A study of Homo sapiens with 12 samples.

Results

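The genes described here are 10 RNA-binding proteins that set splicing patterns by tissue type: MBNL1, MBNL2, MBNL3, RBFOX2, ESRP1, ESRP2, QKI, CELF1, PTBP1 and PTBP3. They were listed by name and found among the 57820 gene IDs of the count tables through their Ensembl IDs. All 10 passed the filter on low counts, which left 16999 gene IDs for testing. Of 56092 splicing events listed for the whole transcriptome, 110 belong to 9 of these genes and ESRP2 has no event. The counts and events come from AsPC-1, an established cell line of human pancreatic cancer, in 12 libraries that form 4 groups of 3 replicates (A, B and C).

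Cells in all groups were transfected with siRNA, either a scrambled one (siControl) or one that targets ARNT (siARNT). The wells were divided a day later, and 1 share stayed at 21% O2 (normoxia) while the other spent 24 h at 1% O2 (hypoxia), until all were harvested 48 h after transfection. ARNT is the constant partner of the hypoxia-inducible factors, so hypoxia with and without ARNT asks which changes need that pathway. The labels name triplicate wells of 1 cell line and no separate cultures, so p-values measure the spread between these samples, which may be technical. ARNT itself fell by 2.22 on the log2 scale with siARNT in normoxia (adjusted p 8.99e-09, edgeR) and fell by 2.17 in hypoxia (adjusted p 2.65e-09).

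ESRP1 and ESRP2 are epithelial splicing factors, and their loss is a known step in the switch of epithelial cells to mesenchymal isoforms. RBFOX2 and QKI promote many of the mesenchymal exon choices. MBNL proteins drive adult isoforms in muscle and other tissues, and CELF1 often opposes them. PTBP1 represses neuronal and muscle exons in most other cells, and PTBP3 is its paralogue. Several of these proteins act on their own transcripts or on those of their relatives, through exons that change localisation, the reading frame or transcript stability.

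The marker genes of the labelled cell type were present. All 8 listed epithelial markers, among them the keratins KRT8, KRT18 and KRT19 and the adhesion protein EPCAM, were above 1 CPM (the count of a gene scaled to library size), with a sum of 5940 to 10000 CPM over the 12 libraries. Markers of leukocytes and muscle and the endothelial gene VWF each summed to at most 1.05 CPM in any library. Of 3 neuronal markers MAP2 alone was above 1 CPM, at 4.52 to 6.08. Among 6 mesenchymal markers, CDH2, COL1A1 and COL1A2 were below 1 CPM. VIM was at 1480 to 2320 CPM, ZEB1 at 67.3 to 87.4 and ACTA2 at 2.23 to 4.39. The summed mesenchymal markers, mostly VIM, were lowest in normoxia siControl, at 1570 to 1680 CPM, and stood at 2150 to 2410 in hypoxia siControl. With siARNT they were at 2100 to 2320 CPM in normoxia and 2340 to 2400 in hypoxia. The summed epithelial markers were at 6400 to 6950 CPM with siControl and 7130 to 10000 with siARNT in normoxia. In hypoxia the 2 groups overlapped, at 6380 to 7230 CPM with siControl and 5940 to 7190 with siARNT. The mesenchymal sum thus moves with both oxygen and siRNA beside the regulators below, and the epithelial sum with siRNA in normoxia. The part of either sum in those results was not tested. In such bulk samples fewer cells of a type and less RNA per cell cannot be told apart. Reads counted on genes came to between 38525512 and 84337166 per library.

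The exons that carry most of the splicing described below are short, and their sequences are shown because several are shared between family members. Of 51 exon skips listed in these genes, 38 could be placed on GENCODE 29 through equal lengths of the exon and of both flanking introns. The sequences were read from those GENCODE 29 transcripts (GRCh38), and all lie in coding sequence of at least 1 transcript. The MBNL1 exon of 54 nt (chr3:152446704-152446757, plus strand) favours nuclear localisation of the protein. The MBNL1 exon of 36 nt (chr3:152455542-152455577) has a counterpart in MBNL2 (chr13:97365136-97365171, plus strand) and MBNL3 (chrX:132384663-132384698, minus strand). The MBNL1 exon of 95 nt (chr3:152456267-152456361) is not a multiple of 3, so its skipping changes the reading frame of the C-terminus, and MBNL2 has the same exon (chr13:97366459-97366553). Capitals mark the bases of MBNL2 and MBNL3 that differ from the MBNL1 exon of the same length.
MBNL1 54 nt: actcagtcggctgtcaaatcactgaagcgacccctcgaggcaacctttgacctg
MBNL1 36 nt: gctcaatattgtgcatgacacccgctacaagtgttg
MBNL2 36 nt: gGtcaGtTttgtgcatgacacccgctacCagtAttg
MBNL3 36 nt: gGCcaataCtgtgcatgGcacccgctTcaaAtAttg
MBNL1 95 nt: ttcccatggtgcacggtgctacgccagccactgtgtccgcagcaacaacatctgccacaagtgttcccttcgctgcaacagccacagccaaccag
MBNL2 95 nt: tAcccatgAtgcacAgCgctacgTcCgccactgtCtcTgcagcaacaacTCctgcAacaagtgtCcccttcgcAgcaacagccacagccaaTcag
The 36-nt exons of MBNL1 and MBNL2 share 31 bases, those of MBNL1 and MBNL3 share 29, and those of MBNL2 and MBNL3 share 28. The 95-nt exons of MBNL1 and MBNL2 share 81 bases.

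Short exons of the other families are set against them. RBFOX2 has an exon of 43 nt (chr22:35752613-35752655, minus strand), known as a muscle exon, beside one of 40 nt (chr22:35756105-35756144) near the C-terminus, and an exon of 93 nt (chr22:35768257-35768349) inside the RNA-binding domain. PTBP1 has an exon of 78 nt (chr19:805492-805569, plus strand), which alters its strength as a repressor, and an exon of 34 nt (chr19:807869-807902), whose skipping shifts the frame and is the textbook case of PTBP1 limiting its own transcript. PTBP3 has an exon of 34 nt as well (chr9:112330441-112330474, minus strand), near its start.
RBFOX2 43 nt: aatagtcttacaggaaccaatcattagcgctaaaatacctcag
RBFOX2 40 nt: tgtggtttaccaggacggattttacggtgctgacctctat
PTBP1 78 nt: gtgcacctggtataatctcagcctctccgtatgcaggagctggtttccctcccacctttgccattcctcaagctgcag
PTBP1 34 nt: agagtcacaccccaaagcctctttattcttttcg
PTBP3 34 nt: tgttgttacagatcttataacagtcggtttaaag
The 34-nt exons of PTBP1 and PTBP3 share only 6 bases, so they are not counterparts of each other.

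Levels were first compared between the genes, as CPM per kb of annotated exon, in normoxia siControl. PTBP3 was the most abundant at 32.8 ± 1.82 CPM per kb (SD, n = 3 here and throughout), followed by MBNL1 at 21.7 ± 1.31 and CELF1 at 19.7 ± 0.355. PTBP1 (16.7 ± 1.9), RBFOX2 (16.2 ± 0.174) and MBNL2 (14.5 ± 0.913) came next. MBNL3 (5.62 ± 0.282), QKI (4.71 ± 0.343), ESRP1 (4.21 ± 0.323) and ESRP2 (1.32 ± 0.0928) formed the lower end. Neighbours in this order did not overlap between libraries, except PTBP1 with RBFOX2 and QKI with ESRP1. The order of the first ranks was less clear in the other groups: with siARNT in normoxia the ranges of PTBP3 and PTBP1 overlapped. PTBP3 was first and ESRP2 last in all 4 groups, and within the MBNL family MBNL3 was lowest in each. This scale divides by all annotated exon bases, whichever isoform is expressed, so the order depends on annotated length. In CPM, MBNL3 (65.9 to 72.44) overlapped MBNL2 (67.84 to 76.26) in normoxia siControl, and QKI (76.99 to 88.45) was above both.

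The plot of levels by library shows these genes on the scale of CPM per library.

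**Figure D1:**
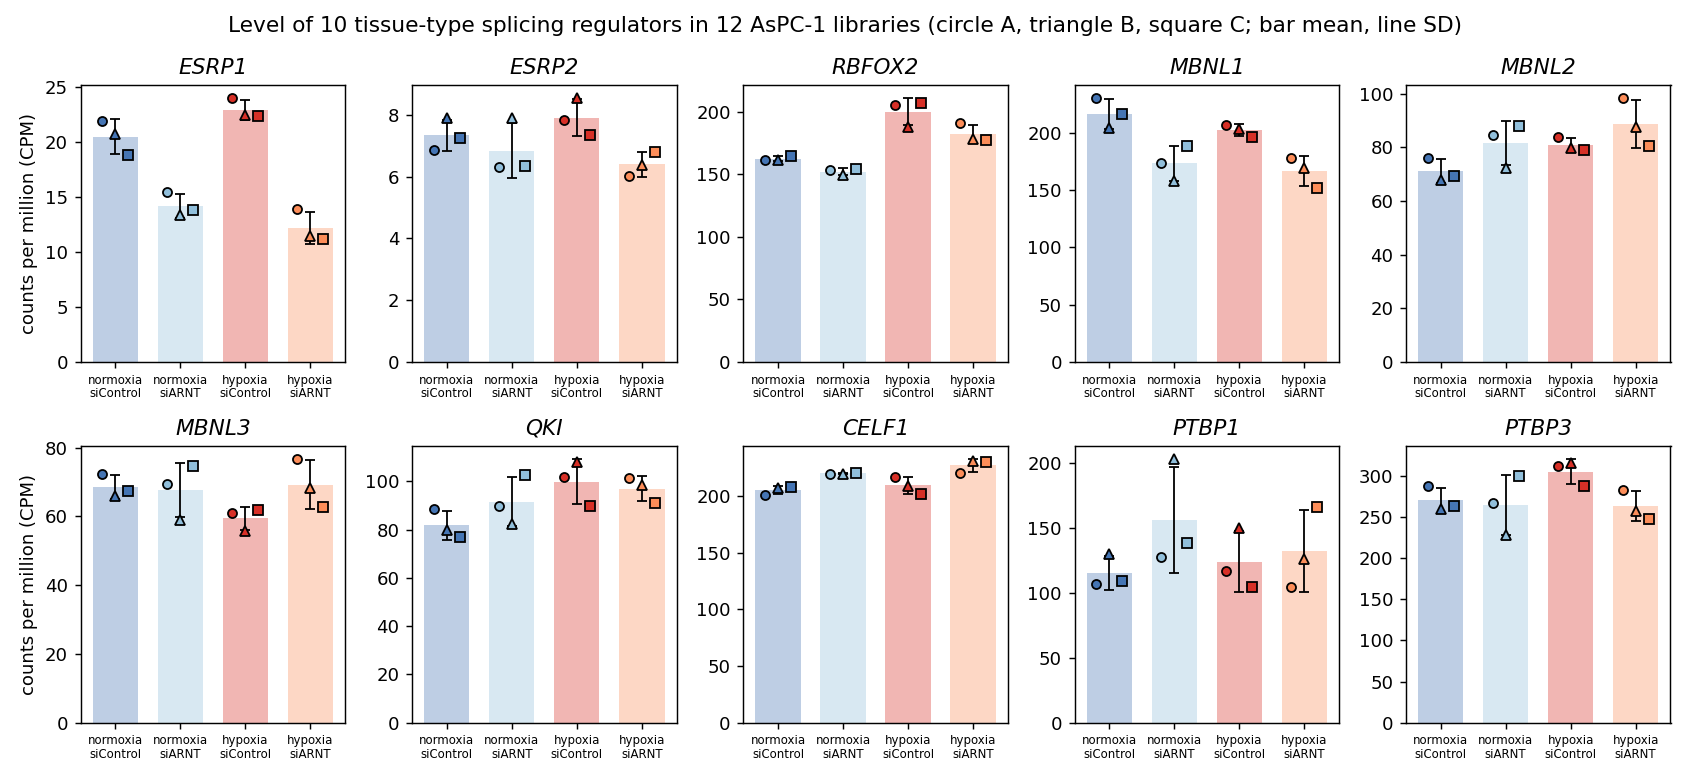
Level of each of the 10 regulators in CPM (vertical axes, from 0) in the 4 groups, with 1 symbol per library (circle A, triangle B, square C), bars for the mean and lines for the SD of 3 libraries. ESRP1 lies between 18.83 and 24.02 CPM in the 6 siControl libraries and between 11.22 and 15.48 in the 6 siARNT libraries.

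Knockdown of ARNT lowered 2 of the 10 regulators in both oxygen conditions, the epithelial factor ESRP1 and MBNL1, and raised none. These are 2 calls among 10 in normoxia and 2 among 10 in hypoxia, where 20.2% and 29.1% of all tested genes were called (edgeR, adjusted p under 0.05), so the share of the regulators called was no higher than that of all genes. The median log2 fold change of the 10 was -0.02 in normoxia and -0.09 in hypoxia, against 0.01 and 0.02 over all tested genes. The siARNT and siControl libraries did not overlap for 4 regulators in normoxia and 6 in hypoxia, against 46.5% and 40.3% of all tested genes. At an unadjusted p under 0.05 there were 3 regulators in normoxia and 7 in hypoxia, against 38.7% and 39.5% of all tested genes. In normoxia 9.42% of all genes were called upward and 10.8% downward, and in hypoxia 14.4% and 14.7%. The same 12 libraries serve again in the oxygen comparisons below.

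ESRP1 (ENSG00000104413.11, on chromosome 8) stood at 21.95, 20.79 and 18.83 CPM in normoxia siControl and at 15.48, 13.36 and 13.79 in normoxia siARNT. In hypoxia it stood at 24.02, 22.48 and 22.42 CPM with siControl and at 13.9, 11.43 and 11.22 with siARNT. Every siARNT library was below every siControl library. The log2 fold change was -0.53 in normoxia (SE 0.101, adjusted p 0.00413, edgeR) and -0.91 in hypoxia (SE 0.102, adjusted p 4.5e-05), so that in hypoxia ESRP1 was left at 0.53 of its siControl level. Hypoxia itself gave no call for ESRP1: its log2 fold change was 0.16 in siControl (adjusted p 0.271) and -0.22 in siARNT (adjusted p 0.236). The difference between these last 2 values, which is the interaction, was -0.38 with an interval of -0.67 to -0.10 at 2 SE. It had an unadjusted p of 0.0198 and an adjusted p of 0.154 (edgeR).

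ESRP2, the paralogue with overlapping targets, was at 6.874, 7.893 and 7.237 CPM in normoxia siControl and 6.3, 7.885 and 6.354 in normoxia siARNT. In hypoxia it was at 7.841, 8.545 and 7.359 CPM with siControl and 6.006, 6.392 and 6.813 with siARNT. The hypoxia groups did not overlap, and the log2 fold change there of -0.31 missed the threshold (adjusted p 0.0651, edgeR). It passed with the replicate letter as a block (adjusted p 0.0436) and without normoxia siARNT B (0.0293), a library outside the groups compared that enters the shared estimate of the spread.

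MBNL1 (ENSG00000152601.13, chr3:152243828-152465780, plus strand) was at 230.4, 204.2 and 216.1 CPM in normoxia siControl and 173.5, 157.8 and 188.9 in normoxia siARNT. In hypoxia it was at 206.9, 203.4 and 196.6 CPM with siControl and 178.2, 169.4 and 152.3 with siARNT. As for ESRP1, all 6 siARNT libraries were below all 6 siControl libraries. It fell by 0.32 on the log2 scale in normoxia (SE 0.0787, adjusted p 0.0154, edgeR) and by 0.28 in hypoxia (SE 0.0788, adjusted p 0.019). The normoxia call was lost without normoxia siControl A (adjusted p 0.0657). The hypoxia call was lost without hypoxia siControl A, hypoxia siARNT B or hypoxia siARNT C (adjusted p 0.0686, 0.0502 and 0.0671). Exons of antisense genes cover 15.57% of the MBNL1 exon bases, and the strand setting of the counting is not given in the sources used here, so reads of the 2 cannot be told apart.

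The other MBNL genes did not follow MBNL1. MBNL2 was at 67.84 to 76.26 CPM in normoxia siControl and 72.22 to 87.9 in normoxia siARNT, with a log2 fold change of 0.20 that missed the threshold (adjusted p 0.125, edgeR). In hypoxia its log2 fold change with siARNT was 0.14 (adjusted p 0.289). MBNL3 was at 55.69 to 61.81 CPM in hypoxia siControl and 62.71 to 76.7 in hypoxia siARNT, which did not overlap, with a log2 fold change of 0.22 (adjusted p 0.107). MBNL3 passed under scaling by total counts (0.30, adjusted p 0.019) and without normoxia siARNT B (adjusted p 0.0471), and its value was 0.14 without hypoxia siARNT A. MBNL2 in hypoxia was at 0.06 without that same library. Whether MBNL1 differs from MBNL2 and MBNL3 in its change was not tested.

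Of the remaining regulators with siARNT, CELF1 was at 201.2, 207.1 and 208 CPM in normoxia siControl and 219.8, 219.4 and 220.7 in normoxia siARNT. The groups did not overlap in either oxygen condition, but the log2 fold changes were small, 0.10 in normoxia (adjusted p 0.147, edgeR) and 0.12 in hypoxia (adjusted p 0.0894; 0.20 and 0.011 under scaling by total counts). PTBP3 was at 287.6 to 316 CPM in hypoxia siControl and 247.5 to 283 in hypoxia siARNT, with a log2 fold change of -0.22 (adjusted p 0.107), which passed without normoxia siARNT B (0.041) and was -0.14 under scaling by total counts. RBFOX2 had log2 fold changes of -0.09 in normoxia (adjusted p 0.219) and -0.13 in hypoxia (adjusted p 0.0874). The latter was -0.05 under scaling by total counts and passed at -0.20 without hypoxia siControl B (0.0186).

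PTBP1 varied most between replicates. It was at 106.7, 130.3 and 108.8 CPM in normoxia siControl and 127.7, 203.2 and 138.1 in normoxia siARNT, a log2 fold change of 0.44 that did not pass the test (SE 0.207, adjusted p 0.14, edgeR). Without normoxia siARNT B it was 0.20. With a correction of each library for GC content, which is described further on, that value turned to -0.13 (adjusted p 0.038). The highest library, normoxia siARNT B, was also the one in which counts leaned most towards GC-rich genes (a slope of 0.424 log2 units per 10% of GC), and PTBP1 is GC-rich (61.7%, percentile 92.3 of tested genes).

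Hypoxia raised RBFOX2 with and without ARNT knockdown. In siControl 2 of the 10 regulators were called, RBFOX2 and QKI, both upward, where 25.3% of all tested genes were called and 10.4% were called upward. In siARNT RBFOX2 alone was called, where 4.09% of all genes were and 2.21% were called upward. The downward shares were 14.9% and 1.89%. The same regulators, 2 and 1, had an unadjusted p under 0.05, against 36.6% and 21.2% of all genes. The libraries of the 2 oxygen conditions did not overlap for 6 regulators in siControl and 2 in siARNT, against 46.8% and 22.2% of all genes. The median log2 fold change of the 10 was 0.14 in siControl and 0.01 in siARNT, against 0.02 and -0.04 over all tested genes.

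RBFOX2 (ENSG00000100320.18, chr22:35738736-36028425, minus strand) was at 161.6, 161.4 and 164.5 CPM in normoxia siControl and at 205.5, 187.4 and 207 in hypoxia siControl. With siARNT it was at 153.2, 149.1 and 154.2 CPM in normoxia and at 190.8, 178.1 and 177.7 in hypoxia. All 6 hypoxia libraries were above all 6 normoxia libraries. It rose by 0.30 in siControl (SE 0.0546, adjusted p 0.00185, edgeR) and by 0.26 in siARNT (SE 0.0546, adjusted p 0.0276). The siControl call held in each alternative that was run. The siARNT call was lost when any of the 6 normoxia libraries, hypoxia siARNT A or hypoxia siARNT B was left out (adjusted p from 0.0523 to 0.0985), while its log2 fold change stayed between 0.25 and 0.28. It was also lost when only the samples compared were fitted (adjusted p 0.175), with no filter on low counts (0.117) and with the transfected well as a block (0.0781).

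QKI (ENSG00000112531.12, chr6:163414000-163578596, plus strand) was at 88.45, 79.91 and 76.99 CPM in normoxia siControl and 101.8, 108.2 and 89.68 in hypoxia siControl, a rise of 0.29 (SE 0.094, adjusted p 0.0418, edgeR). With siARNT it was at 89.7, 82.38 and 102.7 CPM in normoxia and 101.3, 98.49 and 91.2 in hypoxia, and these groups overlapped. The siControl call was lost without normoxia siControl B or C, normoxia siARNT A, hypoxia siControl A or B, or hypoxia siARNT B (adjusted p from 0.0567 to 0.141). It was lost as well under scaling by total counts (0.058) and with the transfected well as a block (0.0543).

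The remaining regulators gave no call with hypoxia. In siControl the groups did not overlap for MBNL2 (67.84 to 76.26 against 78.95 to 84.07 CPM; log2 fold change 0.19, adjusted p 0.156, edgeR), which passed when only those 6 samples were fitted (0.0415). MBNL3 was at 65.9 to 72.44 CPM in normoxia and 55.69 to 61.81 in hypoxia, a log2 fold change of -0.21 (adjusted p 0.14) that also passed in the fit of those 6 samples alone (0.0198). PTBP3 was at 259.4 to 287.2 against 287.6 to 316 CPM, a log2 fold change of 0.18 (adjusted p 0.198). Without the GC correction described next, the interaction gave 0 calls among the 10 by edgeR and 0 by DESeq2, with ESRP1 alone at an unadjusted p under 0.05, where 4.69% of all tested genes were called (2.49% up, 2.19% down) and 20.8% had such an unadjusted p.

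A correction of each library for the GC content of genes had the largest effect on these counts. It called 7 regulators for hypoxia in siControl (6 up), 3 for hypoxia in siARNT (2 up), 8 for siARNT in normoxia (4 up), 7 for siARNT in hypoxia (2 up) and 4 for the interaction (1 up). It also called more of all genes, 42.8%, 21.5%, 32.5%, 46.1% and 18.5% in the same order. In hypoxia in siControl the share of rises among all calls went from 41.2% to 52.6%.

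The calls for RBFOX2, QKI, ESRP1 and MBNL1 held under this correction, in the same direction. ESRP1 was then at -0.40 with siARNT in normoxia and -0.92 in hypoxia, and its hypoxia change was called in both siRNA conditions with opposite signs, 0.26 in siControl (adjusted p 0.00697, edgeR) and -0.25 in siARNT (adjusted p 0.0247). Its interaction became -0.51 (adjusted p 0.00258). The interaction was also called for PTBP3 at -0.26 (adjusted p 0.0137), MBNL3 at 0.17 (0.0289) and RBFOX2 at -0.13 (0.0469). MBNL1 was at -0.18 with siARNT in normoxia, against -0.32 without the correction, and at -0.25 in hypoxia. MBNL2 was called upward with siARNT in normoxia at 0.34 and in hypoxia at 0.20, MBNL3 at 0.12 and 0.29, and ESRP2 downward at -0.53 and -0.39. The plot of changes sets both sets of values side by side.

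**Figure D2:**
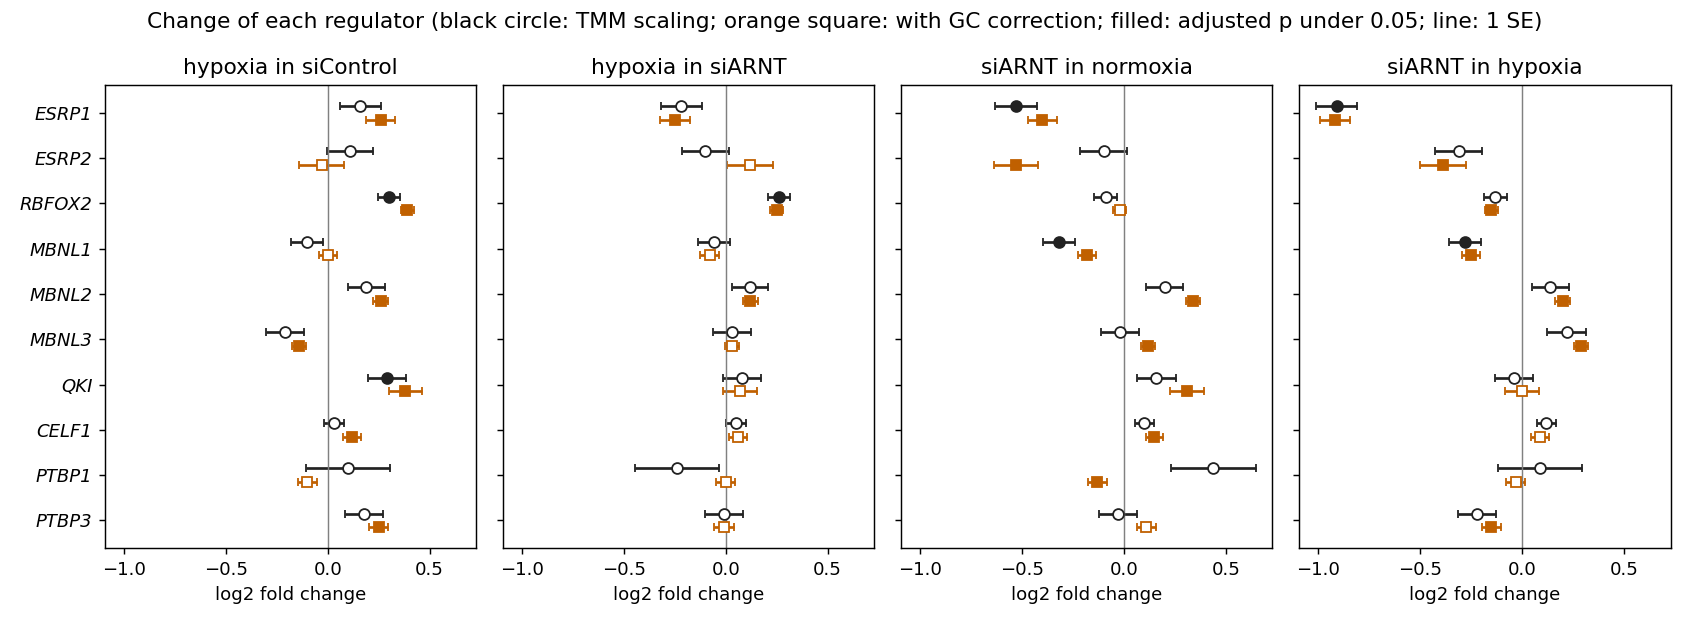
Log2 fold change of each regulator (horizontal axes) in 4 comparisons, by edgeR with TMM scaling (black circles) and with the GC correction (orange squares). Filled symbols passed an adjusted p under 0.05 and lines span 1 SE. ESRP1 and MBNL1 lie left of 0 in both siARNT panels and RBFOX2 lies right of 0 in both hypoxia panels under either scaling, whereas PTBP1 changes side in siARNT in normoxia.

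Other tissue-type regulators from a list of 36 were read in the same fit. Only 18 were expressed enough to be tested, and those left out include the neuronal factors NOVA1, NOVA2, RBFOX1, RBFOX3 and SRRM4 and the CELF genes CELF2 to CELF6. With siARNT 5 of the 18 were called in normoxia (4 up) and 6 in hypoxia (3 up), where 20.2% and 29.1% of all tested genes were called. RBM24, a muscle splicing factor, was at 1.533 ± 0.2922 CPM in normoxia siControl and 2.472 ± 0.2257 in normoxia siARNT, and in hypoxia it went from 1.235 ± 0.3536 to 2.62 ± 0.3897, a rise of 1.09 (SE 0.212, adjusted p 0.00236, edgeR). The normoxia rise of RBM24, 0.68 (adjusted p 0.037), was lost in 6 of the 12 fits that left out 1 library. These were the fits without normoxia siControl B or C, normoxia siARNT A or C, hypoxia siControl A or hypoxia siARNT B, with adjusted p from 0.0512 to 0.152. SRRM3, a microexon factor of neurons and endocrine cells, rose from 1.928 ± 0.3767 to 5.371 ± 1.587 CPM in normoxia (log2 fold change 1.48, adjusted p 0.00714), which was 0.57 with the GC correction (adjusted p 0.0192). RBM47, an epithelial RNA-binding protein, rose by 0.37 in normoxia (adjusted p 0.0113), a call lost without normoxia siControl C (0.0621).

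The stability factor ELAVL1 rose by 0.47 with siARNT in hypoxia (adjusted p 3.45e-05, edgeR), and TIA1, which binds U-rich introns, fell by 0.44 there (adjusted p 0.00349). With hypoxia 2 of the 18 were called in siControl, where 25.3% of all tested genes were, RBM5 upward by 0.49 (adjusted p 4.36e-05) and ELAVL1 downward by 0.27 (adjusted p 0.00211). In siARNT 2 were called upward, where 4.09% of all genes were called and 2.21% upward, RBM5 by 0.21 (adjusted p 0.045) and ZFP36L1 by 0.23 (adjusted p 0.0353). Both of these siARNT calls were lost when only the samples compared were fitted (0.251 and 0.215). The RBM5 call was also lost without any single library except hypoxia siControl B (adjusted p 0.052 to 0.139). The ZFP36L1 call was lost without any 1 of the 6 normoxia libraries, hypoxia siControl A, hypoxia siARNT A or hypoxia siARNT B (0.0507 to 0.12).

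The regulators' own splicing was measured in 110 events, of which 94 had enough reads to be tested. CELF1 has 35 events, MBNL1 17, QKI and PTBP3 13 each, RBFOX2 10, MBNL2 7, ESRP1 and PTBP1 6 each and MBNL3 3. Inclusion is given as PSI (percent spliced in), a fraction of junction reads from 0 to 1. For retained introns PSI sets the mean coverage of the intron against the junction reads. PSI averaged between 0.1 and 0.9 in 44 of the 94 tested events, and PTBP1 has no such event. No event of the 94 was called in any of the 5 comparisons by edgeR or by limma. At an unadjusted p under 0.05 edgeR gave 7 events for hypoxia in siControl, 0 for hypoxia in siARNT, 9 for siARNT in normoxia, 11 for siARNT in hypoxia and 4 for the interaction. Over all 43716 tested events the called shares were 0.0297%, 0%, 0.158%, 0.0869% and 0.00229%, so few events of any gene were called, and the unadjusted shares were 5.65%, 4.57%, 7.95%, 6.25% and 4.22%. The groups did not overlap for 13, 7, 15 and 19 of the 94 events in the first 4 comparisons, against 11.6%, 9.89%, 13.8% and 11.5% of all events.

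**Figure D3:**
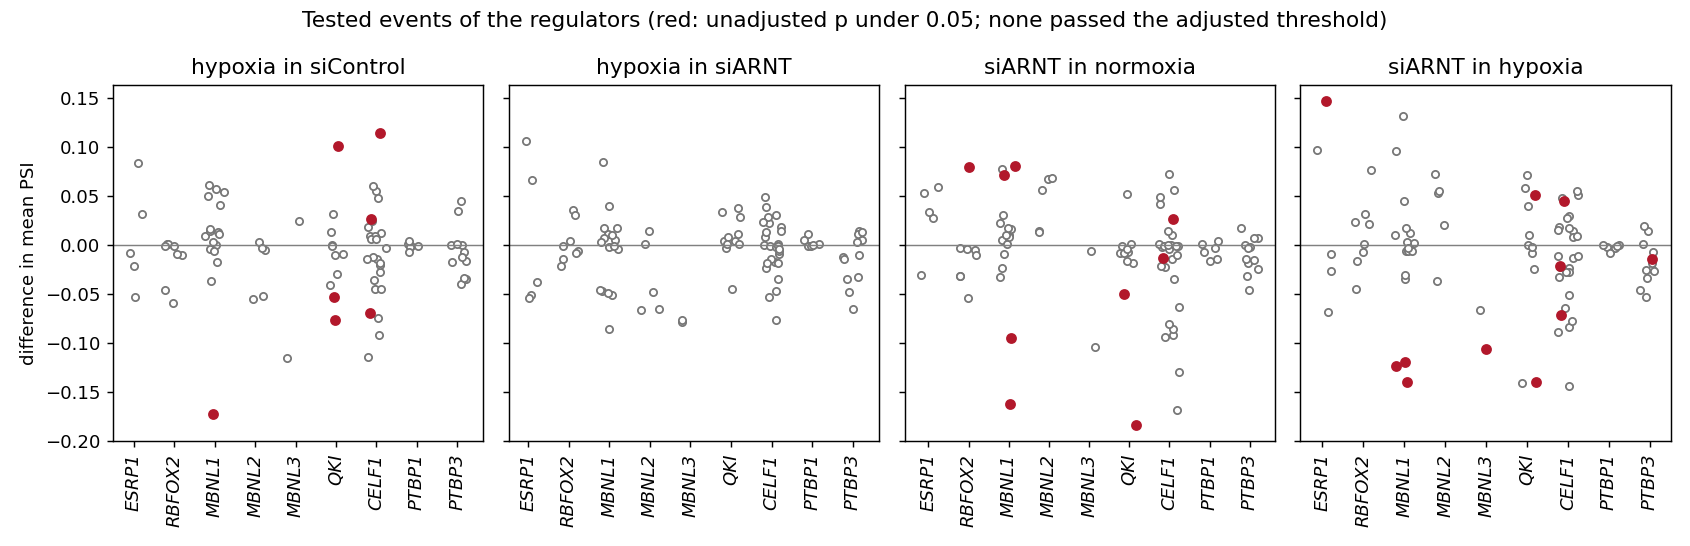
Difference in mean PSI (vertical axis) of each of the 94 tested events, by gene, in 4 comparisons. Red points have an unadjusted p under 0.05 and none passed the adjusted threshold. MBNL1, QKI and CELF1 hold 7 of the 7 red points for hypoxia in siControl and 8 of the 9 for siARNT in normoxia. For siARNT in hypoxia they hold 3, 2 and 3 of the 11. These genes also have 17, 11 and 28 of the 94 tested events, and events of a gene can share reads.

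MBNL1 had 8 events at such intermediate inclusion. Its 54-nt exon, the nuclear one, had PSI values of 0.519, 0.342 and 0.526 in normoxia siControl and 0.289, 0.260 and 0.319 in hypoxia siControl. With siARNT they were 0.292, 0.337 and 0.270 in normoxia and 0.434, 0.338 and 0.383 in hypoxia. Normoxia siControl was thus the group with most inclusion, its library B lower than A and C and close to the other groups. The PSI difference was -0.173 for hypoxia in siControl (unadjusted p 0.00523, adjusted p 0.594) and -0.163 for siARNT in normoxia (unadjusted p 0.00984, adjusted p 0.437). These 2 comparisons share the normoxia siControl libraries. The interaction was 0.258 (unadjusted p 0.00465, adjusted p 1). Between 56.5 and 206.5 reads per library stood behind these shares.

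The 36-nt exon of MBNL1 lay between the 54-nt and 95-nt exons in the gene and had PSI values of 0.580, 0.603 and 0.559 in normoxia siControl and 0.499, 0.426 and 0.535 in normoxia siARNT. In hypoxia the values were 0.553, 0.547 and 0.626 with siControl and 0.463, 0.409 and 0.433 with siARNT. Every siARNT library was below every siControl library. The PSI difference was -0.095 in normoxia (unadjusted p 0.0121, adjusted p 0.458) and -0.140 in hypoxia (unadjusted p 0.00564, adjusted p 0.511). A second event with the same exon and another downstream neighbour averaged 0.558 ± 0.0127 and 0.535 ± 0.0194 in normoxia siControl and siARNT, and 0.608 ± 0.02 and 0.488 ± 0.0467 in hypoxia. The 2 events share junction reads.

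The frame-shifting 95-nt exon of MBNL1 was included more often, at 0.78 ± 0.0407 with siControl and 0.861 ± 0.0256 with siARNT in normoxia, and at 0.821 ± 0.0398 and 0.815 ± 0.0238 in hypoxia. The difference with siARNT in normoxia, 0.081, had an unadjusted p of 0.00737 and an adjusted p of 0.389. Its second event, with the exon before the 36-nt exon as neighbour, gave 0.071 in the same comparison (adjusted p 0.448) and an interaction of -0.105 (adjusted p 1). The event of MBNL1 with most reads, a 93-nt exon with no GENCODE 29 match, stayed between 0.104 and 0.148 in all 12 libraries.

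**Figure D4:**
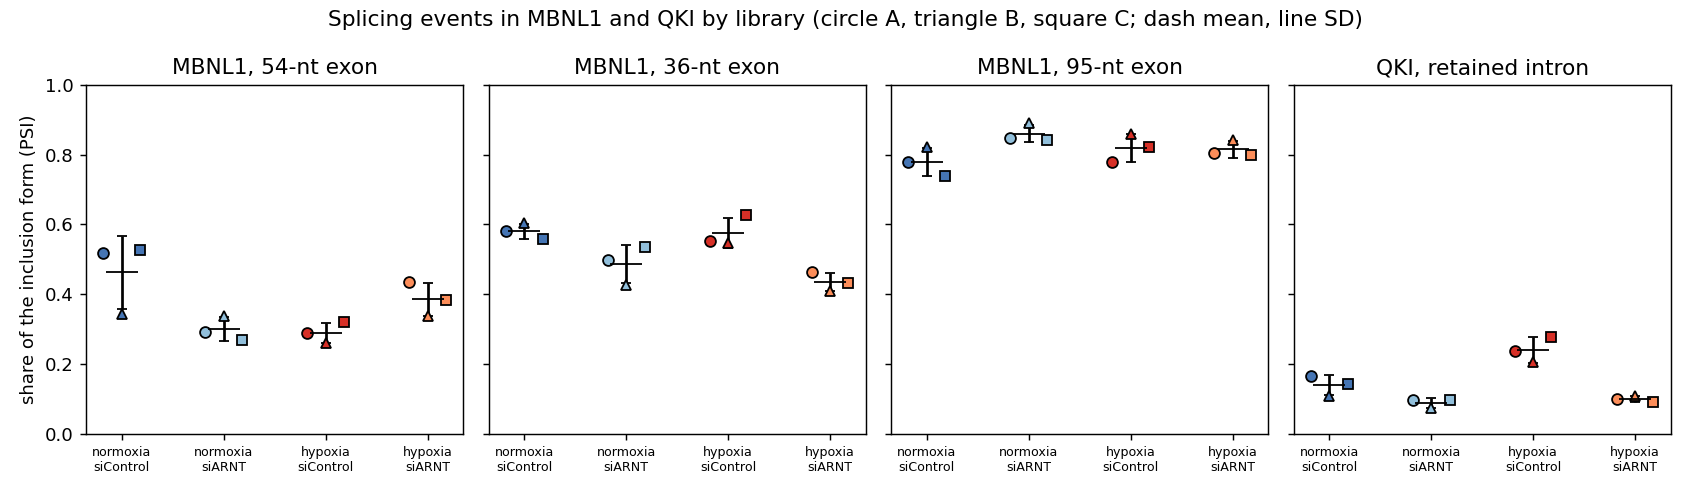
PSI (vertical axis, 0 to 1) of 3 MBNL1 exons and 1 QKI intron in each library of the 4 groups, with the mean as a dash and the SD as a line (n = 3). Inclusion of the 36-nt exon is lower in all 6 siARNT libraries than in the 6 siControl libraries, and the QKI intron is highest in the 3 hypoxia siControl libraries.

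The counterparts of these exons in MBNL2 and MBNL3 stood at other levels in some events, despite the like sequences shown above. The 36-nt exon of MBNL2, read against the joint skip with the 95-nt exon, had group means from 0.067 to 0.115, on 16 to 50.5 reads. The like event of MBNL1 is the second of its 36-nt exon. The 36-nt exon of MBNL3 was mostly included, with group means from 0.894 to 1, on 16 to 48.5 reads. The 95-nt exon of MBNL2 against the joint skip, its event with most reads, averaged 0.567 ± 0.0287 with siControl and 0.634 ± 0.018 with siARNT in normoxia, then 0.515 ± 0.0385 and 0.568 ± 0.0519 in hypoxia. The like event of MBNL1, the second of its 95-nt exon, averaged 0.701, 0.772, 0.758 and 0.723 in that order. With the 36-nt exon as neighbour, the MBNL2 exon averaged 0.847, 0.903, 0.844 and 0.917, on 16.5 to 44 reads. The MBNL1 exon with that neighbour averaged 0.78, 0.861, 0.821 and 0.815. In MBNL3 the event with most reads, a skip of a 74-nt exon, had only 18.5 to 65.5 reads per library and averaged 0.467 ± 0.0293, 0.364 ± 0.0761, 0.352 ± 0.0159 and 0.285 ± 0.0171 in the same order. None of these was called.

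An intron of QKI came nearest to the threshold. It is 3001 nt long, lies near the 3′ end (chr6:163563720-163566720, plus strand, GENCODE 29 match by length), and the last exon of 1 annotated transcript spans it, so reads counted as retention can also come from that alternative last exon. Alternative last exons give QKI isoforms with different C-termini. Its PSI was 0.165, 0.109 and 0.143 with siControl in normoxia and 0.238, 0.205 and 0.278 in hypoxia. With siARNT it was 0.096, 0.073 and 0.098 in normoxia and 0.099, 0.108 and 0.092 in hypoxia. The hypoxia siControl libraries were above all others. The difference with siARNT in hypoxia was -0.140 (unadjusted p 0.000156, adjusted p 0.0833, edgeR), and that for hypoxia in siControl was 0.101 (unadjusted p 0.00337, adjusted p 0.534). The first of these passed with the replicate letter as a block (adjusted p 0.0473) and among events with a mean PSI from 0.05 to 0.95 (0.0234). That limit on the mean PSI was chosen after the data were seen. A shorter intron of 2226 nt that starts at the same 5′ splice site (chr6:163563720-163565945) averaged 0.602 ± 0.0941 with siControl and 0.418 ± 0.073 with siARNT in normoxia, and 0.593 ± 0.0148 and 0.452 ± 0.0491 in hypoxia. Its total of intron coverage and junction reads was 18.2 to 47.3 per library. This shorter intron shares part of its reads with the longer intron and was not called (adjusted p 0.536 in normoxia and 0.839 in hypoxia). The QKI event with most reads, a 117-nt coding exon, was included at 0.992 to 0.994 in each group mean.

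ESRP1 has a 12-nt choice between 5′ splice sites, in which the files' first form is the shorter exon. Its share was 0.178, 0.186 and 0.091 in hypoxia siControl and 0.375, 0.31 and 0.211 in hypoxia siARNT. In normoxia it was 0.167, 0.258 and 0.189 with siControl and 0.148, 0.216 and 0.333 with siARNT. The hypoxia groups did not overlap, at a difference of 0.147 (unadjusted p 0.0277, adjusted p 0.744, edgeR) and a depth of 19 to 73 reads.

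Most RBFOX2 events named here had 1 main form in all groups. The 40-nt exon was included at group means from 0.875 to 0.934 and the muscle exon of 43 nt at 0.030 to 0.084. The 93-nt exon of the RNA-binding domain was included at 0.957 to 0.974. The event with most reads, a 3-nt shift of a 3′ splice site, had 0.006 to 0.030 of the shorter form in every library. Both forms were common at another 3-nt shift of a 3′ splice site, with group means of 0.628 to 0.664 for the shorter form. The same held for a 12-nt shift, with group means of 0.776 to 0.867. No RBFOX2 event was called beside the rise of its counts in hypoxia.

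PTBP1 was close to full inclusion throughout. The 34-nt exon had group means from 0.98 to 0.996 and the 78-nt exon from 0.986 to 1, and its event with most reads, a 59-nt shift of a 3′ splice site read 694 to 1609 times per library, had group means of 0.002 to 0.006 for the shorter exon. The lowest value of each exon in normoxia siARNT, 0.953 for the 34-nt and 0.959 for the 78-nt exon, was in library B, the one with the highest PTBP1 level. In hypoxia siARNT both were lowest in C (0.981 and 0.957), again the highest in PTBP1. In hypoxia siControl both were lowest in A (0.988 and 0.979), whereas PTBP1 was highest in B. Normoxia siARNT B and hypoxia siARNT C also leaned most towards GC-rich genes (slopes of 0.424 and 0.238). A link between level and inclusion was not tested. In PTBP3 the 34-nt exon averaged 0.082 ± 0.00955 with siControl and 0.036 ± 0.00252 with siARNT in normoxia, and 0.048 ± 0.0341 and 0.041 ± 0.028 in hypoxia. The tested PTBP3 event with most reads, a joint skip of neighbouring exons, stayed at 0.975 or above. In CELF1 28 events were tested, and that with most reads, a 3-nt shift of a 3′ splice site, had 0.008 to 0.055 of the shorter form. A 105-nt CELF1 exon, annotated in a noncoding transcript, averaged 0.78 ± 0.0298 in normoxia siControl and 0.894 ± 0.0476 in hypoxia siControl, which did not overlap (unadjusted p 0.0177, adjusted p 0.801, edgeR).

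Genes with known target exons of these proteins were read as a last comparison. All their events were taken, and the target exons were not picked out. Of 36 gene names listed for textbook targets of ESRP and RBFOX2, MBNL and CELF1, PTBP or QKI, 30 had at least 1 event. MACROH2A1 stands in that list under its other name H2AFY as well. Of the 358 events of these genes, 306 were tested. None was called by edgeR in any of the 5 comparisons, and 23, 23, 33, 25 and 10 events had an unadjusted p under 0.05 in the order used above. Over all 43716 tested events those shares were 5.65%, 4.57%, 7.95%, 6.25% and 4.22%. The lowest adjusted p values in that order were 0.0965, 0.194, 0.0602, 0.127 and 1.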

How the data were processed

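Poly(A) RNA was sequenced from stranded libraries as single reads on 3 lanes, per the labels' protocols. Reads were trimmed with Trimmomatic and aligned with STAR 2.4.2a to GRCh38.p10, per the submitters' processing notes. The authors deposited whole-number counts of reads per gene. Lines that name no gene held 22.71% to 25.2% of reads and were left out. The deposited event files give counts of junction reads, the mean coverage signal of introns, and PSI as a fraction from 0 to 1, as the file headers name them. PSI computed again from those counts matched within 0.0051 for 99.18% of intron retention values and 100% of the rest. Event positions differ from GRCh38 for all but 3 of the matched exon skips, all in PTBP1, so exons were matched to GENCODE 29 by length.

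The test of gene counts was that of edgeR 4.0.16 (in R 4.3.3; TMM, filterByExpr, robust quasi-likelihood, 1 mean per group, all 12 libraries), with Benjamini-Hochberg adjustment over 16999 genes per comparison. Inclusion and exclusion counts of events (mean total of at least 20, each form at least 10 in all) were tested with edgeR with a negative binomial dispersion of 0, chosen on simulated data, and with limma 3.58.1 on log2 odds (offset 0.5). DESeq2 1.42.0 was an alternative. CPM used TMM scaling. The interval of 2 SE and all SE come from the fit. The edgeR fit of gene counts, with and without the GC correction, and the edgeR and limma fits of events were also run on simulated data. The outcome of those runs is not given here.

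Same-letter libraries deviated together in hypoxia in siControl (correlations 0.38, 0.70 and 0.39) and in siARNT in normoxia (0.63, 0.83 and 0.34). The correlations were taken over genes as deviations from the group means. Letters A and C also deviated together, at 0.38 and 0.32 in hypoxia in siControl and at 0.68 and 0.46 in siARNT in normoxia. The values therefore do not show a pairing by letter. As a block, the letter changed no call of a listed gene in these comparisons. No replicate pair agreed within sampling noise (chi-square over its degrees of freedom 4.3 to 89.1), so all 12 libraries counted as separate. Named were all 10 genes, the tested event with most reads in each, the called other regulators with the 3 largest changes per comparison, and, chosen after their values were seen, the other events. The members and lists were chosen with earlier results of these data known. Intervals cover counting error and the spread of these samples only.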

Additional observations from a re-analysis of the deposited data

Results flagged for a closer look

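The hypoxia response of RBM5, a splicing factor outside the 10 genes, differed between the siRNA conditions by the test of the interaction. RBM5 was at 57.46 ± 1.471 CPM in normoxia siControl and 80.76 ± 1.884 in hypoxia siControl, and at 59.02 ± 2.407 and 68.15 ± 0.6354 with siARNT (SD, n = 3). The rise in siARNT was smaller by 0.28 on the log2 scale (value -0.28, adjusted p 0.0465, edgeR). The call was lost in each of the 12 fits that left out 1 library, with adjusted p from 0.0553 to 0.161, and the cause was not tested.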

How the results depend on the processing

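The number of regulators called (2 and 1 for hypoxia with siControl and with siARNT, 2 and 2 for the knockdown in normoxia and in hypoxia, 0 for the interaction) moved most with the GC correction, to 7, 3, 8, 7 and 4, and to 7, 3, 8, 7 and 3 with the replicate block beside it. For hypoxia in siControl it was 1 with total count scaling, 1 with a block by transfected well and 4 with only the samples compared. For hypoxia in siARNT it was 0 with no filter on low counts, with only the samples compared and with the block by well. For siARNT in hypoxia it was 4 with total count scaling. With 1 library left out the counts ran from 1 to 2, 0 to 1, 1 to 2, 1 to 5 and 0 to 0 in the same order. The replicate block alone gave 2, 1, 2, 3 and 0. The cause of these shifts was not tested. The PTBP1 value for siARNT in normoxia reversed with the GC correction, from 0.44 to -0.13, and to -0.14 with the replicate block beside it. No event of the 10 genes was called under any alternative except 1 in siARNT in hypoxia, the QKI intron, with the replicate block and, in an alternative chosen after seeing the data, among events with a mean PSI from 0.05 to 0.95. Over all genes' events the replicate block raised the calls from 13 to 452 and from 0 to 221 for hypoxia with siControl and with siARNT, from 69 to 586 and from 38 to 306 for the knockdown in normoxia and in hypoxia, and from 1 to 23 for the interaction. Replicate letters did not deviate together for hypoxia in siARNT (correlations 0.87, -0.11 and -0.81) or siARNT in hypoxia (0.58, -0.08 and -0.66). Of the 94 tested events 50 averaged a total under 100 per library (reads, or coverage and reads for introns), which limits what these tests could detect.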

Other observations

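Among the events of the target genes, 3 exons stood apart by library without passing the threshold in the edgeR fit of all tested events with no block. They were chosen after their values were seen. The limit to a mean PSI from 0.05 to 0.95 used below was also chosen after the data were seen. The 150-nt exon of PICALM, a clathrin adaptor gene, had a PSI of 0.429 ± 0.009 with siControl and 0.346 ± 0.017 with siARNT in normoxia, and 0.334 ± 0.026 and 0.256 ± 0.004 in hypoxia (SD, n = 3), on 508 to 993 reads per library. The 3 libraries of normoxia siControl were above all others and those of hypoxia siARNT below all others. Adjusted p values were 0.0965 for hypoxia in siControl, 0.194 for hypoxia in siARNT, 0.108 for siARNT in normoxia and 0.127 for siARNT in hypoxia (edgeR). Among events with a mean PSI from 0.05 to 0.95 they were 0.0113, 0.0211, 0.0204 and 0.0228, and by limma 0.642 to 0.857. With the replicate letter as a block they were 0.0251, 0.0371, 0.0445 and 0.0571.

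The 96-nt exon of ADD3, a gene of the membrane skeleton and a QKI target, was at 0.601 ± 0.023 in normoxia siControl and 0.522 ± 0.016 in hypoxia siControl, and at 0.58 ± 0.014 and 0.502 ± 0.009 with siARNT. The adjusted p was 0.157 for hypoxia in siControl and 0.365 in siARNT (edgeR). These became 0.0444 and 0.0711 with the replicate block, 0.0191 and 0.0402 among events with a mean PSI from 0.05 to 0.95, and 0.83 and 0.857 by limma. The 42-nt exon of NUMA1, a gene of the mitotic spindle and an MBNL target, was at 0.723 ± 0.032 in normoxia siControl and 0.607 ± 0.011 in normoxia siARNT, and at 0.733 ± 0.013 and 0.645 ± 0.029 in hypoxia. The adjusted p was 0.0602 for siARNT in normoxia and 0.352 in hypoxia (edgeR). These became 0.0276 and 0.196 with the replicate block, 0.0108 and 0.125 among events with a mean PSI from 0.05 to 0.95, and 0.585 and 0.629 by limma. In both oxygen conditions every siARNT library was below every siControl library.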
